A study of Mus musculus with 4 samples.

Results

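The genes described here encode interleukin-6 (IL-6) family ligands, their receptors and the first steps of their signal, measured by single-cell RNA sequencing in cultured mouse adipose cells. The 10 genes, out of 32285 in the count tables, were chosen by symbol, with earlier results of these data known. Their counts beside the share of all genes therefore describe these genes only. They are the ligands *Il6*, *Lif* and *Il11*, the receptor chains *Il6ra*, *Il6st*, *Lifr*, *Osmr* and *Il11ra1*, the transcription factor *Stat3* and the feedback inhibitor *Socs3*.

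Cytokines of the IL-6 family share the receptor chain gp130, the product of *Il6st*. IL-6 and IL-11 first bind a receptor of their own (*Il6ra*, *Il11ra1*) and then pair gp130 chains, whereas leukemia inhibitory factor (*Lif*) joins gp130 to the LIF receptor (*Lifr*), and oncostatin M joins it to *Osmr*. Paired receptor chains activate JAK kinases, which phosphorylate STAT3. STAT3 in turn drives *Socs3*, whose product binds gp130 and stops the signal. In adipose tissue, stromal cells and macrophages are known sources of IL-6, and fibroblasts are known sources of LIF and IL-11.

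The 4 libraries each came from another kind of culture. De-differentiated fat (DFAT) cells make up the libraries named iWAT_DFAT and eWAT_DFAT. These are cells that grow out when isolated adipocytes adhere to the upper wall of a filled flask, from inguinal (iWAT) and epididymal (eWAT) white adipose tissue. The iWAT_ASPC and eWAT_ASPC libraries hold plated cells of the stromal vascular fraction (SVF) of the same depots, in which adipose stem and progenitor cells (ASPCs) grow out. All cultures came from male C57BL/6J mice fed a chow diet, with no transgene and no treatment described for them, and all were sorted for live cells with 7-AAD before loading. The ages of the mice, and how many mice were pooled in a culture, are not given in the sources used here. With 1 library per condition, the spread between cultures was not measured, and intervals cover counting error only.

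Cells were the barcodes with 5000 to 75000 unique molecular identifiers (UMIs), 200 to 7500 genes and under 10% mitochondrial UMIs, which gave 7629 (iWAT_DFAT), 6464 (eWAT_DFAT), 7424 (iWAT_ASPC) and 6745 (eWAT_ASPC) cells. Sets of 4 values follow this order. Their median depth lay between 22111 and 27617 UMIs. Between 13 and 20 cell barcodes were shared by any pair of libraries, 97 in all. The progenitor marker *Pdgfra* had a UMI in 64.0%, 33.9%, 30.9% and 30.6% of cells after each cell was thinned to 5000 UMIs, a depth that every cell reached. The 8 markers of progenitors summed to 7116, 2371, 7499 and 6916 counts per 1000000 UMIs (CPM), lowest in the eWAT_DFAT library. Most of each sum came from the collagen genes *Col1a1*, *Col1a2* and *Col3a1*, which were also lowest there. *Col1a2* alone stood at 2298, 902, 3137 and 2914 CPM. *Pdgfrb* and *Thy1* were lowest there too. *Pdgfra* (246, 95.2, 84.5 and 82.5 CPM), *Dcn* (1687, 255, 181 and 299 CPM) and *Lum* were not. Adipocyte markers summed to 28.5, 85.5, 2.43 and 4.15 CPM, with *Lep* at 0 in all 4 libraries. The pan-leukocyte marker *Ptprc* lay between 0.0109 and 0.486 CPM, and the 8 immune markers summed to 20.7, 18.5, 21.3 and 64.7 CPM. Of these, *Csf1r* stood at 18.4, 13.1, 11.1 and 13.0 CPM, and *Lyz2* at 40.6 CPM in the eWAT_ASPC library.

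The 3 ligands were all higher in DFAT cells than in ASPCs of either depot, while the receptors, *Socs3* and *Stat3* were highest in the iWAT_DFAT library, *Il6ra* by less than counting error. In the inguinal depot all 10 genes stood higher in DFAT cells than in ASPCs, 7 of them by at least 2-fold (*Il6*, *Lif*, *Il11*, *Lifr*, *Osmr*, *Socs3* and *Stat3*), a distance that 10.5% of the 12972 genes at a mean of 1 or more CPM reached in that direction. In the epididymal depot only the 3 ligands were at least 2-fold higher in DFAT cells (8.1% of all genes), and the other 7 genes were lower there than in ASPCs, *Il11ra1* and *Socs3* by at least 2-fold (7.47% of all genes). In the same comparison the progenitor marker sum, mostly of collagen genes, was also lower in DFAT cells (2371 against 6916 CPM). The adipocyte marker sum was higher in DFAT cells (85.5 against 4.15 CPM), and so was *Pdgfra* itself (95.2 against 82.5 CPM). The part of these differences in the result was not tested. *Stat3* in iWAT fell to a log2 ratio of 0.96 under median-of-ratios scaling, which left 6 genes past 2-fold, and *Socs3* in eWAT fell short of 2-fold under 4 of the 10 alternatives, to -0.97 at the most. *Il6st* in eWAT passed 2-fold under 4 alternatives, to -1.06 at the most. The median log2 ratio of DFAT cells over ASPCs was 1.27 for the 10 genes in iWAT, beside 0.079 for all genes. In eWAT it was -0.48, beside 0.075.

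Between the DFAT libraries, 7 genes were at least 2-fold higher in iWAT (*Il6*, *Il6st*, *Lifr*, *Osmr*, *Il11ra1*, *Socs3* and *Stat3*, beside 8.74% of all genes) and *Il11* was the only one at least 2-fold higher in eWAT (5.56% of all genes). The median log2 ratio of the 10 genes was 1.32, and that of all genes 0.076. The progenitor marker sum, mostly of collagen genes, differs between these libraries in the same direction as the 7 genes (7116 against 2371 CPM). In the cells with a *Pdgfra* UMI, 93.7% of the iWAT_DFAT and 78.8% of the eWAT_DFAT cells, the same 7 genes and *Il11* passed 2-fold. The part of the marker difference in the result was not tested. Between the ASPC libraries no gene was 2-fold higher in iWAT (4.56% of all genes), and *Socs3* alone was at least 2-fold higher in eWAT (4.86%), with medians of -0.25 for the 10 genes and 0.062 for all. All 10 genes passed the minimum of 1 CPM. The 4 comparisons share libraries, since each library enters a pair of them.

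**Figure D1:**
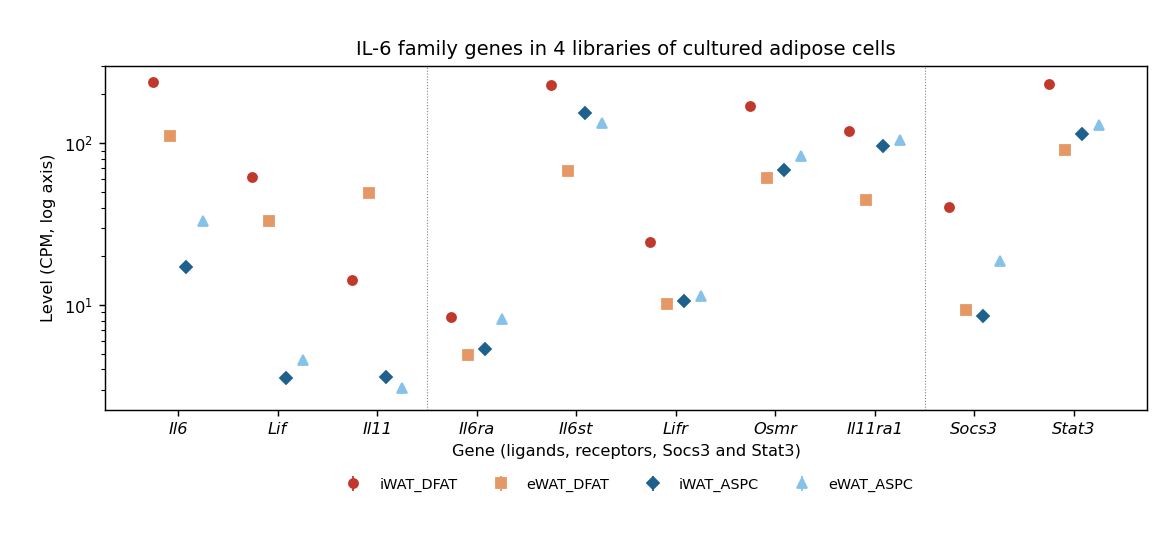
Level of each of the 10 IL-6 family genes (CPM, log axis) in the 4 libraries, with 1 point per library, 95% counting intervals as bars (mostly smaller than the points) and dotted lines between ligands, receptors and the pair of *Socs3* and *Stat3*. The iWAT_DFAT point is the highest for every gene except *Il11*, whose highest point is the eWAT_DFAT library at 49.5 CPM.

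*Il6* (ENSMUSG00000025746, chromosome 5, 30013114 to 30019981, plus strand) encodes the founding cytokine of the family. Its level was 239 CPM (95% interval 237 to 241) in the iWAT_DFAT library and 110 (108 to 111) in the eWAT_DFAT library. In the ASPC libraries it was 17.2 (16.6 to 17.8) in iWAT and 33.2 (32.4 to 34.0) in eWAT. Both DFAT libraries thus lay above both ASPC libraries, and the depots stood in opposite order in the 2 kinds of cell. The log2 ratio of DFAT cells over ASPCs was 3.80 (3.75 to 3.85) in iWAT, which is 13.9-fold, and 1.73 (1.69 to 1.77) in eWAT, which is 3.31-fold. Between depots the log2 ratio of iWAT over eWAT was 1.12 in DFAT cells and -0.95 in ASPCs.

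A UMI of *Il6* was found in 60.9%, 32.5%, 7.81% and 13.6% of the thinned cells, and in 89.9%, 69.8%, 28.1% and 42.1% at full depth. Free RNA, taken from droplets of 1 to 100 UMIs, carried *Il6* at 346, 160, 22.8 and 35.1 CPM. This was above the level in cells in the first 3 libraries, and in the eWAT_ASPC library the intervals overlap (30.9 to 39.7 in free RNA). Some of the cells with a UMI may hold free RNA alone. Endothelial-marked cells, those with a UMI of at least 4 of 8 endothelial markers, had a UMI after thinning in 10 of 145 cells (6.90%) of the eWAT_DFAT library and in 1 of 136 (0.735%) of the eWAT_ASPC library, at median depths of 11794 and 14718 UMIs before thinning. The cells of those libraries that carried no marker class had shares of 39.6% and 16.1%, at median depths of 24979 and 26546 UMIs. Pericyte-marked cells of the eWAT_DFAT library had a share of 42.1% (32 of 76), close to that of cells of no class. The part of free RNA in these shares was not tested. In the iWAT_DFAT library the share was 67.3% in cells of no class and 11.1% in Schwann-marked cells (2 of 18), but also 42.1% in endothelial-marked ones (8 of 19). Subtracting free RNA at 10% of the UMIs, and the other alternatives, left the log2 ratio of DFAT cells over ASPCs between 3.72 and 3.84 in iWAT and between 1.64 and 1.73 in eWAT.

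The 250 bases before the RefSeq start of *Il6* (GRCm38.p6, chr5:30012864-30013113, plus strand, outside annotated exons) are shown because *Il6* differed 13.9-fold between DFAT cells and ASPCs of iWAT. Capitals mark an AP-1 motif (TGANTCA) 249 to 243 bases before the start and an NF-kB motif (GGGA and TTCC with any 2 bases between them) 44 to 35 bases before it. NF-kB and AP-1 are transcription factor families that act in inflammation and stress.
*Il6*: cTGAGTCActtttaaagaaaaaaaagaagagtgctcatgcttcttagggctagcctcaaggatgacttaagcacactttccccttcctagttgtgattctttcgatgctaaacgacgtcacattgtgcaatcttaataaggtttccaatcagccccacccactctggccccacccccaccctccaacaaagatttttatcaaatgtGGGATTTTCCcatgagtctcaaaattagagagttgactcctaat
Both strands of such windows were searched for these motifs, for the STAT motif TTCNNNGAA and for the cAMP response element TGACGTCA. Among 32851 windows of the same length, 1.21% held the NF-kB motif, 6.75% the AP-1 motif, 7.02% the STAT motif and 1.55% the response element. The AP-1 motif was also present before *Lif* and before the internal start of *Il11*, and the STAT motif before *Socs3*. None of the 4 motifs was found in the windows of *Il6ra*, *Il6st*, *Lifr*, *Osmr*, *Il11ra1* and *Stat3*. All 250 bases of the *Osmr* window and 247 of the first *Il11ra1* window lie in exons of these genes in GENCODE M21. A match is a description of the letters, and absence of one says only that the letters are not in the window.

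*Lif* (ENSMUSG00000034394, chromosome 11, 4257557 to 4272514, plus strand) encodes leukemia inhibitory factor. It stood at 62.2 CPM (61.1 to 63.4) in the iWAT_DFAT and 33.0 (32.2 to 33.8) in the eWAT_DFAT library. In the ASPC libraries it was at 3.55 (3.29 to 3.82) and 4.55 (4.25 to 4.85). The log2 ratio of DFAT cells over ASPCs was 4.13 (4.02 to 4.24) in iWAT, the largest of the 10 genes in that comparison, and 2.86 (2.76 to 2.96) in eWAT. Between depots it was 0.92 in DFAT cells, 1.89-fold and just inside the 2-fold limit, and -0.36 in ASPCs. A UMI was found in 24.6%, 13.1%, 1.70% and 1.76% of thinned cells, and free RNA carried 101, 43.1, 5.60 and 4.51 CPM. Endothelial-marked cells of the eWAT_DFAT library had a UMI in 2.76% (4 of 145) against 16.2% in cells of no class. In the eWAT_ASPC library they had 0 of 136, against 2.25%. The AP-1 motif of the window before the start (chr11:4257325-4257361, plus strand, 228 to 222 bases before it) is in capitals, shown beside that of *Il11* because both ligands carry the letters found before *Il6*.
*Lif*: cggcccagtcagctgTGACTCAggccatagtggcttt
*Il11*: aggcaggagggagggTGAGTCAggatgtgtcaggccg
The *Il11* site lies at chr7:4778218-4778254 on the minus strand, 98 to 92 bases before an annotated start inside the gene. The window before the first start of *Il11* held none of the 4 motifs.

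*Il11* (ENSMUSG00000004371, chromosome 7, 4772373 to 4782859, minus strand) encodes interleukin-11, a cytokine linked to fibroblast activation. It alone of the 10 genes was highest in the eWAT_DFAT library, at 49.5 CPM (48.5 to 50.6), against 14.3 (13.8 to 14.8) in the iWAT_DFAT library. The ASPC libraries had 3.59 (3.33 to 3.86) in iWAT and 3.07 (2.83 to 3.32) in eWAT. DFAT cells were thus above ASPCs in both depots, by log2 ratios of 1.99 (1.87 to 2.11) in iWAT and 4.01 (3.89 to 4.13) in eWAT. The log2 ratio of iWAT over eWAT was -1.79 (-1.86 to -1.73) in DFAT cells, or 3.47-fold higher in eWAT, and in cells with a *Pdgfra* UMI it was -2.32. In ASPCs it was 0.23 (0.069 to 0.39), and it turned to -0.12 in cells with a *Pdgfra* UMI, so no depot order is given for ASPCs.

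Few DFAT cells held most of the *Il11* UMIs. After thinning, a UMI was found in 2.69%, 8.66%, 1.36% and 1.41% of cells, and the 1% of cells with the most held 75.0%, 43.2%, 79.4% and 74.8% of the UMIs. The same 1% held 5.77% and 11.0% of the *Il6* UMIs and 10.7% and 15.5% of the *Lif* UMIs in the DFAT libraries. In the ASPC libraries *Lif*, which like *Il11* had a UMI in under 2% of thinned cells, reached 63.4% and 58.7%, so there the share goes with rare detection. The variance of *Il11* over cells was 11.4 and 7.38 times its mean in the iWAT_DFAT and eWAT_DFAT libraries, where *Il6* had 1.70 and 1.93 times. At full depth 45 cells of the iWAT_DFAT library had 10 or more *Il11* UMIs and held 61.3% of them, with 272 in 1 cell. In the eWAT_DFAT library 244 such cells (3.77%) held 74.9%, with up to 212 per cell. In the ASPC libraries 2 and 3 cells reached 10 UMIs, and the highest held 68 and 37. The higher level in eWAT DFAT cells was therefore carried by more cells with many *Il11* UMIs, not by a higher maximum per cell.

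The cells with and without a UMI of a ligand were compared after thinning, over 10033 genes at a mean of 5 or more CPM, by the lowest log2 ratio over the 4 libraries. The 5 genes highest in *Il11* cells by this measure were *Areg*, *Igfbp5*, *Eln*, *Kcnk10* and *Cxcl3*. *Igfbp5*, which encodes an IGF binding protein, had log2 ratios of 3.62, 3.87, 1.37 and 2.31. *Eln*, which encodes elastin, had 1.88, 2.04, 1.39 and 1.30, on means of only 0.039 and 0.0071 UMIs per *Il11* cell in the DFAT libraries. *Areg*, an EGF receptor ligand gene, had 4.06 and 1.79 in the DFAT libraries. *Areg*, *Kcnk10* and *Cxcl3* had no UMI in the *Il11* cells of either ASPC library, so their ASPC ratios rest on the 0.5 UMI added to each sum. The measure is a description over cells of the same cultures, with 205, 560, 101 and 95 *Il11* cells.

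**Figure D2:**
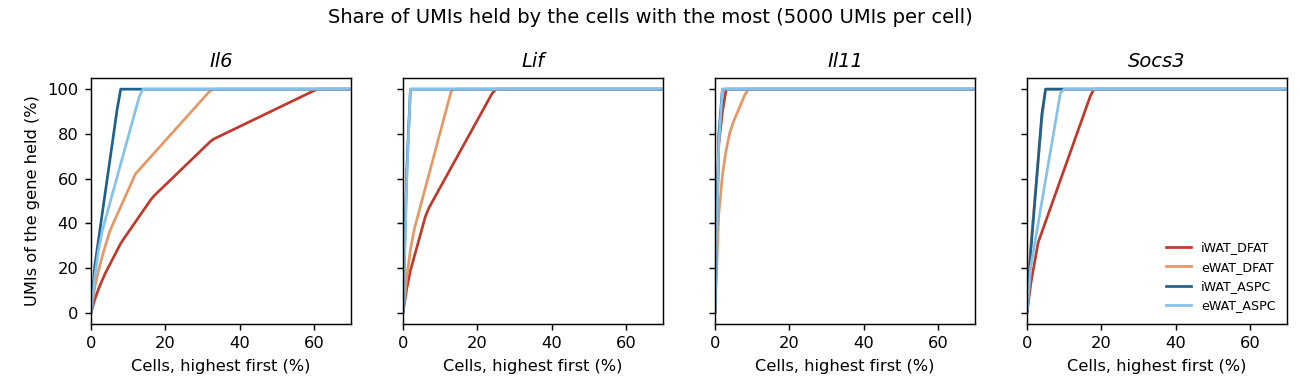
Cumulative share of the UMIs of *Il6*, *Lif*, *Il11* and *Socs3* (vertical axis, percent) held by the cells with the most (horizontal axis, percent of cells, highest first), in cells thinned to 5000 UMIs and with 1 line per library. The *Il11* lines rise at once, with 75.0% of the iWAT_DFAT UMIs in the first 1% of cells, and the *Il6* line of the iWAT_DFAT library is spread over 60.9% of cells.

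*Il6st* (ENSMUSG00000021756, chromosome 13, 112464070 to 112510086, plus strand), the shared gp130 chain, was present in all 4 libraries at 228 CPM (226 to 230), 67.0 (65.8 to 68.2), 154 (152 to 156) and 133 (131 to 134). The eWAT_DFAT library was the lowest. Its log2 ratio of iWAT over eWAT was 1.77 (1.74 to 1.80) in DFAT cells and 0.22 (0.19 to 0.24) in ASPCs, and *Il6st* was the only receptor gene higher in iWAT among the ASPC libraries. DFAT cells stood above ASPCs in iWAT, with a log2 ratio of 0.56, and below them in eWAT, with -0.98, just short of 2-fold. With 62.4%, 26.9%, 49.6% and 44.3% of thinned cells holding a UMI, it was spread over many cells.

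*Osmr* (ENSMUSG00000022146, chromosome 15, 6813577 to 6874969, minus strand) encodes the oncostatin M receptor chain. Its levels were 170 CPM (168 to 172), 61.3 (60.2 to 62.5), 67.8 (66.7 to 68.9) and 83.2 (81.9 to 84.4). The iWAT_DFAT library was thus set apart from the other 3, with log2 ratios of 1.47 over eWAT DFAT cells and 1.33 over iWAT ASPCs. In eWAT the ratio of DFAT cells over ASPCs was -0.44. *Lifr* (ENSMUSG00000054263, chromosome 15, 7090614 to 7197489, plus strand), the LIF receptor chain, showed the same order of levels, at 24.4 CPM (23.7 to 25.1) in the iWAT_DFAT library and at 10.1 (9.66 to 10.6), 10.6 (10.1 to 11.0) and 11.4 (11.0 to 11.9) in the others. The counting intervals of the eWAT_DFAT and iWAT_ASPC libraries overlap, as do those of the ASPC libraries. *Lifr* was 2.41-fold higher in iWAT than in eWAT DFAT cells and 2.31-fold higher in DFAT cells than in ASPCs of iWAT.

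*Il11ra1* (ENSMUSG00000073889, chromosome 4, 41699989 to 41769474, plus strand) stood at 119 CPM (117 to 120), 44.4 (43.4 to 45.4), 95.8 (94.4 to 97.2) and 105 (104 to 107). It encodes the receptor that binds IL-11. The eWAT_DFAT library, which had the most *Il11*, had the least *Il11ra1*. This was not particular to *Il11ra1*, since the other receptors were also lowest there, *Il6ra* and *Lifr* within counting error of the iWAT_ASPC library. The log2 ratio of DFAT cells over ASPCs was 0.31 in iWAT and -1.25 (-1.28 to -1.21) in eWAT. *Il11ra1* shares 3468 bases with *Galt* on its own strand and lies over 5 genes on the other strand, so its counts are less certain than those of the other receptors. *Il11ra2*, a near-identical copy, was counted at 0.0100 CPM or less. How reads that match both copies were counted was not examined.

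*Il6ra* (ENSMUSG00000027947, chromosome 3, 89864059 to 89913196, minus strand), the receptor that binds IL-6 itself, was counted at 8.45 CPM (8.03 to 8.88), 4.90 (4.59 to 5.23), 5.37 (5.05 to 5.70) and 8.25 (7.86 to 8.66). The iWAT_DFAT and eWAT_ASPC libraries overlap within counting error, and so do the eWAT_DFAT and iWAT_ASPC libraries. No comparison of *Il6ra* passed 2-fold, with log2 ratios of 0.79 (iWAT over eWAT in DFAT cells), -0.62 (the same in ASPCs), 0.65 (DFAT cells over ASPCs in iWAT) and -0.75 (the same in eWAT). A UMI was found in 4.44%, 2.51%, 2.68% and 4.14% of thinned cells, at most 0.236% had 2 or more, and free RNA carried 5.52, 5.67, 3.92 and 6.06 CPM. The gene overlaps the antisense gene *Gm42809* by 281 bases. A UMI of *Il6ra* was thus found in few cells of every library.

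Genes with long introns were counted somewhat higher in the iWAT_DFAT library. The tenth of protein-coding genes with the most intronic bases (961 genes) had a median log2 ratio of 0.34 over the eWAT_DFAT and 0.33 over the iWAT_ASPC library, beside 0.0017 and -0.014 in 205 genes without introns. *Il6st*, *Lifr*, *Osmr*, *Il11ra1*, *Il6ra* and *Stat3* hold between 34918 and 96100 intronic bases, whereas *Il6*, *Lif*, *Il11* and *Socs3* hold 10608 or fewer. The part of intron reads in the differences of the receptors was not tested. The table of the iWAT_ASPC library also names another release of the counting software than the others, and a difference from it cannot be told apart from that of the cells.

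**Figure D3:**
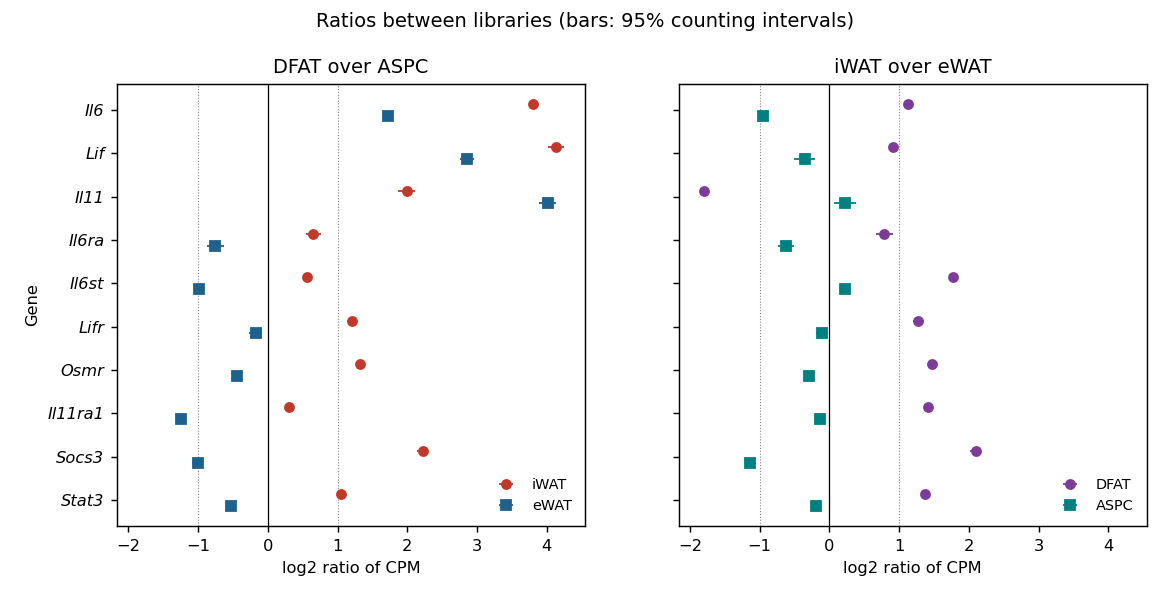
Log2 ratio of CPM of DFAT cells over ASPCs in each depot (left) and of iWAT over eWAT in each kind of cell (right) for the 10 genes, with 95% counting intervals as bars, a solid line at 0 and dotted lines at 2-fold. Left, all 10 inguinal points lie above 0, and the epididymal points of the receptors, *Socs3* and *Stat3* lie below it; right, *Il11* is the only DFAT point below 0, at -1.79.

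*Socs3* (ENSMUSG00000053113, chromosome 11, 117966079 to 117970047, minus strand), the feedback inhibitor, differed most between the depots. It stood at 40.0 CPM (39.1 to 41.0) in the iWAT_DFAT library and at 9.37 (8.94 to 9.83) in the eWAT_DFAT library. The ASPC libraries had 8.59 (8.19 to 9.01) in iWAT and 18.8 (18.2 to 19.5) in eWAT, so the depots were in opposite order in DFAT cells and ASPCs, as for *Il6*. The log2 ratio of iWAT over eWAT was 2.09 (2.02 to 2.17) in DFAT cells and -1.13 (-1.22 to -1.05) in ASPCs. DFAT cells were 4.66-fold higher than ASPCs in iWAT and lower than ASPCs in eWAT, with a log2 ratio of -1.01 (-1.09 to -0.92) whose interval spans 2-fold. The effect of the cell kind on *Socs3* differed by 3.23 on the log2 scale between iWAT and eWAT, more than for any other of the 10 genes. *Il6* had 2.07 and *Il11* -2.02. With 1 library per condition this difference has no test.

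*Socs3* UMIs were found in 17.7%, 4.73%, 4.54% and 9.18% of thinned cells. Cells with a *Socs3* UMI were most unlike the others in *Lcn2*, *Csf3*, *Cfb*, *Hsd11b1* and *C3* by the measure used for *Il11*. *Lcn2*, an acute phase gene that encodes an iron-carrier binding protein, had log2 ratios of 0.66, 0.84, 0.74 and 1.77, and the complement gene *C3* had 0.58, 0.71, 0.88 and 0.65. The ratio of *Lcn2* in the iWAT_ASPC library rests on very few UMIs, with a mean of 0.0059 per *Socs3* cell. *Csf3*, with 0.66, 1.49 and 3.58 in the iWAT_DFAT, eWAT_DFAT and eWAT_ASPC libraries, had no UMI in the *Socs3* cells of the iWAT_ASPC library. *Socs3* itself was found with *Il6* in 925, 111, 34 and 91 thinned cells, 1.12, 1.12, 1.29 and 1.08 times the number that the product of the shares gives. The STAT motif of the RefSeq window before *Socs3* (chr11:117969497-117969535, minus strand, 154 to 146 bases before the start) is in capitals, shown because *Socs3* is a target of STAT3.
*Socs3*: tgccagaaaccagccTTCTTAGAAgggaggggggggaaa
The printed bases lie outside exons, but 77 of the 250 bases of this window lie in an exon of GENCODE M21, whose *Socs3* gene starts further upstream.

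*Stat3* (ENSMUSG00000004040, chromosome 11, 100885098 to 100939540, minus strand), the transcription factor of the pathway, was counted at 233 CPM (231 to 236), 90.2 (88.8 to 91.6), 113 (112 to 115) and 130 (128 to 131). It followed the order of *Osmr*, highest in the iWAT_DFAT and lowest in the eWAT_DFAT library. The log2 ratio was 1.37 for iWAT over eWAT DFAT cells and 1.05 for DFAT cells over ASPCs of iWAT, and it was -0.20 between the ASPC libraries and -0.52 for DFAT cells over ASPCs of eWAT. *Stat3* was the most widely detected member in the iWAT_DFAT library, with a UMI in 64.9% of thinned cells, against 34.5%, 41.8% and 45.4% in the others. It overlaps *Stat5a* by 72 bases on the other strand. Phosphorylation, which activates STAT3, is not measured by RNA counts.

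Other genes of the pathway were taken from lists of 57 genes, chosen with earlier results of these data known. *Osm*, which encodes oncostatin M, had 0, 2, 0 and 2 UMIs in all cells, or 0.0108 CPM in the eWAT_DFAT and 0.0101 in the eWAT_ASPC library. A count of 0 allows up to 3 counts, or 0.0163 CPM in the iWAT_DFAT and 0.0150 in the iWAT_ASPC library. Of the 9 other ligands and ligand partners, 4 reached a mean of 1 CPM. *Clcf1*, a ligand of the CNTF receptor, was higher in DFAT cells, at 23.9 and 22.3 CPM against 7.56 and 7.87 in ASPCs. The other genes of this list did not follow it. In iWAT 1 of the 4 was at least 2-fold higher in DFAT cells (10.5% of all genes) and 2 in ASPCs (6.75%). The list median was -1.11 beside 0.079. In eWAT 1 was at least 2-fold higher in DFAT cells (8.1%) and 1 in ASPCs (7.47%), with a median of 0.025 beside 0.075. The receptors *Cntfr* and *Il31ra* stayed between 0.754 and 1.95 CPM.

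Of 11 kinases, STATs and adaptors, 5, among them *Jak2* and *Stat5a*, were at least 2-fold higher in iWAT than in eWAT DFAT cells, beside 8.74% of all genes, with a list median of 0.78 beside 0.076. The same 5 were at least 2-fold higher in iWAT DFAT cells than in iWAT ASPCs, beside 10.5% of all genes, and none passed 2-fold in the other direction or in the comparisons of eWAT DFAT cells with ASPCs and of the ASPC libraries. *Jak2*, a kinase bound to gp130, was at 149, 68.0, 31.7 and 39.0 CPM. *Stat5a* was at 16.9, 3.91, 3.96 and 2.94 CPM. Of 7 inhibitors, *Socs1* was at least 2-fold higher and *Socs2* at least 2-fold lower in iWAT than in eWAT DFAT cells, beside 8.74% and 5.56% of all genes. *Socs1* and *Ptpn2* were at least 2-fold higher in DFAT cells than in ASPCs of iWAT (10.5% of all genes), and *Socs2* and *Cish* in those of eWAT (8.1%). None of the 7 passed 2-fold between the ASPC libraries. *Socs2*, which acts mainly on growth hormone signals, was at 23.3, 90.3, 23.7 and 33.3 CPM, a pattern unlike that of *Socs3*. The phosphatase gene *Ptpn1* was at 86.1, 59.1, 47.0 and 52.6 CPM and passed 2-fold nowhere.

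Most of the listed genes that respond to STAT3 stood highest in the iWAT_DFAT library. The list was chosen with earlier results of these data known, so its counts describe these genes only. Of 16 such genes, all above 1 CPM on average, 13 were at least 2-fold higher in DFAT cells than in ASPCs of iWAT (10.5% of all genes) and none was 2-fold lower, with a list median of 2.24 on the log2 scale beside 0.079 for all genes. Between the DFAT libraries 10 were at least 2-fold higher in iWAT (8.74% of all genes), 1 (*Hp*) was higher in eWAT (5.56%), and the list median was 1.56 beside 0.076. In eWAT, 6 were at least 2-fold higher in DFAT cells (8.1% of all genes) and 1 (*Cebpd*) lower (7.47%), with a list median of 0.58 beside 0.075. Between the ASPC libraries none was 2-fold higher in iWAT and 6 were higher in eWAT (4.86% of all genes), with a list median of -0.72 beside 0.062. Many of these genes also respond to NF-kB and C/EBP factors, so the list is not a readout of STAT3 alone.

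*Saa3*, an acute phase gene, was at 3115, 683, 0.431 and 80.9 CPM, and *Lcn2* was at 179, 149, 0.542 and 3.18 CPM. Both were nearly absent from the iWAT_ASPC library. *Steap4*, a metalloreductase gene, was at 50.5, 6.30, 0.321 and 4.01 CPM. *Serpina3n*, which encodes a protease inhibitor, was at 80.3 CPM in the iWAT_DFAT library and between 1.40 and 2.79 in the others. *Serpina3n* was also among the 5 genes most like *Il6* within libraries, with *Fndc1*, *Pde1a*, *Nr4a3* and *A730049H05Rik*. Its log2 ratios between cells with and without an *Il6* UMI were 0.56, 1.23, 0.96 and 0.66, small differences in sparse counts.

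**Figure D4:**
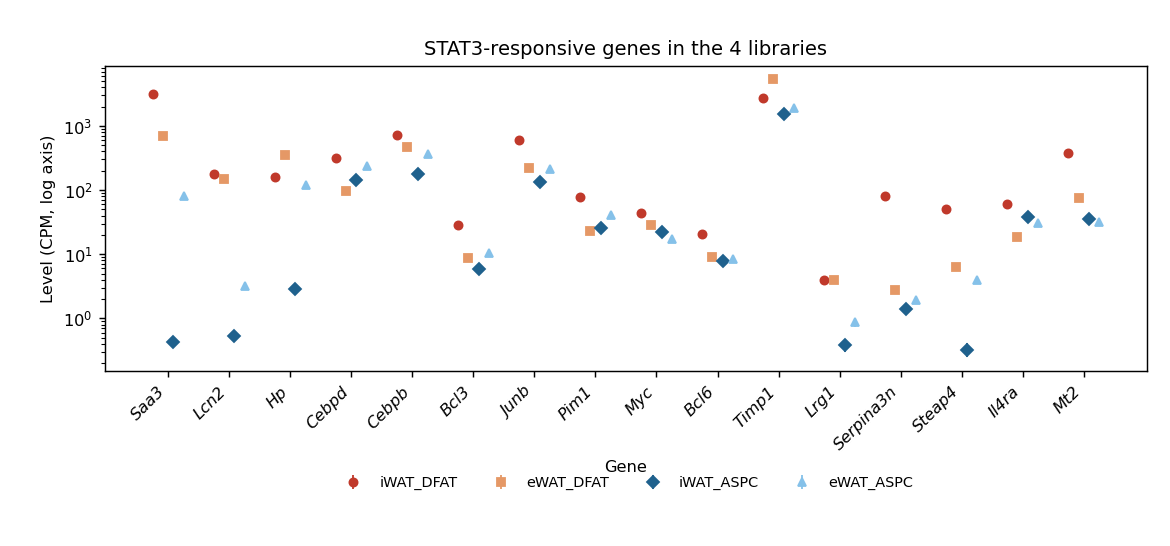
Level of 16 STAT3-responsive genes (CPM, log axis) in the 4 libraries, with 1 point per library and 95% counting intervals as bars. *Saa3* spans 0.431 to 3115 CPM and *Serpina3n* is set apart in the iWAT_DFAT library at 80.3 CPM, while *Hp* and *Timp1* are highest in the eWAT_DFAT library.

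Of 6 genes that control *Il6* transcription or transcript decay, 5 (*Zfp36*, *Zfp36l1*, *Zc3h12a*, *Arid5a* and *Nfkbiz*) were at least 2-fold higher in DFAT cells than in ASPCs of iWAT, beside 10.5% of all genes, with a list median of 2.28 beside 0.079. Between the DFAT libraries 4 were at least 2-fold higher in iWAT, beside 8.74% of all genes, with a median of 1.75 beside 0.076. In eWAT only *Zc3h12a* was 2-fold higher in DFAT cells (8.1% of all genes), with a median of 0.18 beside 0.075. Between the ASPC libraries only *Zfp36* passed 2-fold, higher in eWAT (4.86% of all genes), with a median of iWAT over eWAT of -0.37 beside 0.062. *Zfp36*, whose product (tristetraprolin) speeds the decay of cytokine transcripts, was at 342, 55.4, 29.2 and 63.4 CPM. *Zc3h12a*, which encodes the nuclease Regnase-1, was at 91.6, 60.0, 11.8 and 15.7 CPM. *Nfkbiz*, a nuclear cofactor of NF-kB at the *Il6* gene, was at 176, 53.2, 26.5 and 33.4 CPM. The group thus holds genes that raise and genes that lower *Il6* transcripts. Among 4 genes for the shedding of receptors from the cell surface, *Adam10* was at 56.6, 51.3, 64.4 and 71.7 CPM and *Adam17* at 63.6, 32.1, 24.3 and 20.6 CPM. In iWAT, *Adam17* and *Rhbdf2* were at least 2-fold higher in DFAT cells than in ASPCs, beside 10.5% of all genes. In eWAT *Rhbdf2* was at least 2-fold higher in DFAT cells (8.1% of all genes) and *Rhbdf1* in ASPCs (7.47%). None of the 4 passed 2-fold between depots.

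Cells were also placed in marker classes, by a UMI of 4 or more of 8 markers of a cell type, and the rest were divided into cells with 4 or more of 8 mitosis markers and cells of no class. Cells of no class made up 53.2%, 39.6%, 48.1% and 54.7%, and mitosis-marked cells 45.9%, 54.3%, 48.6% and 35.4%. The classes were set at full depth, and free RNA carried the 8 mitosis markers at a sum of 810, 827, 916 and 626 CPM. In cells the sum was 897, 887, 941 and 684 CPM. The share of mitosis-marked cells is thus not a share of cells in mitosis. *Il6* was lower in mitosis-marked cells than in cells of no class in all 4 libraries. The levels were 193 against 297, 88.5 against 151, 14.6 against 20.8 and 27.9 against 41.2 CPM. Median depth was higher in mitosis-marked cells, and the part of depth and free RNA in the class was not tested. *Osmr* showed the same order, at 143 against 203, 57.4 against 68.6, 62.9 against 75.2 and 76.1 against 92.7 CPM. The depot and cell kind order of *Il6* was the same in both sets of cells.

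Cells marked for other types differed in the receptors and ligands. Endothelial-marked cells (19, 145, 51 and 136 cells) had *Lifr* at 24.8, 24.7, 27.7 and 21.8 CPM, above the 9.43 to 11.1 CPM of cells of no class in the 3 libraries other than iWAT_DFAT. They had less *Il6* than cells of no class, at 81.9, 38.5, 1.03 and 4.11 CPM. Mesothelial-marked cells (481 in the eWAT_ASPC library) had *Il6* at 6.74 CPM (5.36 to 8.36) against 41.2 (40.0 to 42.5) in cells of no class, and *Il6ra* at 13.8 (11.8 to 16.1) against 7.87 (7.34 to 8.44). The 48 of the eWAT_DFAT library had *Il6ra* at 3.25 CPM (0.886 to 8.33) on 4 UMIs, an interval that spans the 5.05 of cells of no class. The 25 immune-marked cells of the eWAT_ASPC library had *Il6* at 29.6 CPM (16.6 to 48.8), an interval that spans the level of cells of no class, and *Il6ra* at 29.6 on the same number of UMIs. Immune-marked cells numbered 0, 2 and 3 in the other libraries, and those of the eWAT_DFAT library held 24 of the 20403 *Il6* UMIs there.

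Schwann-marked cells of the iWAT_ASPC library (139 cells) had *Lif* at 22.2 CPM (16.3 to 29.6), against 3.51 (3.13 to 3.93) in cells of no class, and a *Lif* UMI after thinning in 10.8% against 1.65%. The 18 of the iWAT_DFAT library had *Lif* at 72.0 CPM (42.7 to 114), an interval that spans the 72.9 of cells of no class. *Osmr* stood at 13.5 CPM (8.99 to 19.5) and *Il6* at 4.83 CPM (2.32 to 8.88) in those of the iWAT_ASPC library, below cells of no class at 75.2 and 20.8. The 5 genes most like *Lif* by the measure used for *Il11* were *Brinp1*, *Il13ra2*, *Cadm2*, *Ifitm1* and *Itpkc*. *Cadm2* had log2 ratios of 0.55, 2.15 and 1.67 in the iWAT_DFAT, eWAT_DFAT and iWAT_ASPC libraries and no UMI in the *Lif* cells of the eWAT_ASPC library. *Brinp1* had 1.16, 0.74, 1.92 and 0.65, on means of 0.0069, 0.18, 0.056 and 0.042 UMIs per *Lif* cell. *Il13ra2* and *Ifitm1* had no UMI in the *Lif* cells of either ASPC library.

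**Figure D5:**
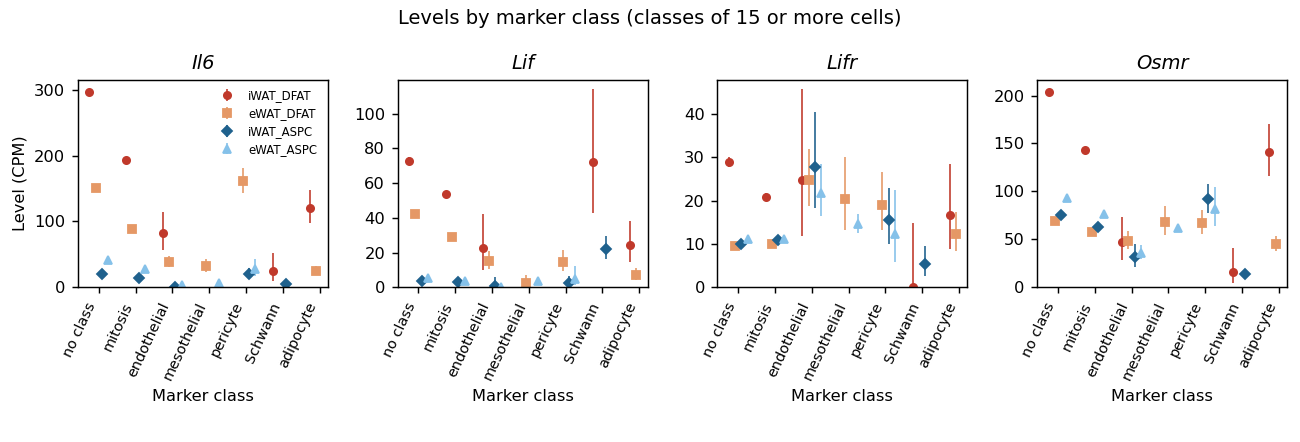
Level of *Il6*, *Lif*, *Lifr* and *Osmr* (CPM) by marker class in each library, for classes of 15 or more cells, with 95% counting intervals as bars. *Il6* is lower in mitosis-marked than in no-class cells in every library. *Lifr* of endothelial-marked cells is between 21.8 and 27.7 CPM in all 4, and *Lif* of Schwann-marked cells in the iWAT_ASPC library is 22.2 CPM.

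Detection of the members in the same cells was mostly near the number given by their separate shares. A UMI of *Il6* and of *Lif* was found together in 1328, 382, 4 and 29 thinned cells, which is 1.16, 1.39, 0.41 and 1.80 times the product of the shares. *Lif* was thus found in 28.6% of cells with and 18.5% of cells without *Il6* in the iWAT_DFAT library, and in 18.2% and 10.7% in the eWAT_DFAT library. *Il6* and *Il11* were found together in 102 and 201 cells of the iWAT_DFAT and eWAT_DFAT libraries, 0.82 and 1.11 times the product. *Il11* and *Il6st* were found together less often than the product in both DFAT libraries, at 0.67 and 0.65 times, whereas *Il11* and *Il11ra1* had 0.75 and 0.89 times. *Il6* with its receptor *Il6ra* had 201, 52, 17 and 34 cells, between 0.90 and 1.09 times. Cells of 1 library are not replicates, and these values describe the libraries only.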

How the data were processed

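UMI counts per gene and barcode of 4 libraries (10x 3′ v3.1 chemistry) were used as deposited by the authors. They are raw counts, before any cell call or normalization. Per the labels and the study's methods they were made with Cell Ranger 7.0.0 on mm10 with intron reads included. In the headers of the tables themselves, iWAT_ASPC carries version 4 of that software and the other libraries carry 7.1.0. CellBender and DoubletFinder, which the methods describe for nuclei, were not run here, and doublets were not removed.

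The tables held 1599387 to 1930796 barcodes. Cells had 5000 to 75000 UMIs, a higher minimum than the 500 of the methods. UMIs were summed over the cells of a library (183664704 to 199357348), scaled to 1000000 (CPM) and given with exact Poisson 95% intervals. A count of 0 allows 3 counts, or 0.0150 to 0.0163 CPM. Ratios carry exact conditional binomial intervals. With 1 library per condition no test was made and no p-value is given. Genes were compared at 2-fold over those at a mean of 1 or more CPM. For detection, each cell was thinned to 5000 UMIs. In counts simulated from the Poisson model that the intervals assume, 94.9% to 95.4% of the ratio intervals held the true value over 12584 to 12835 genes. The simulation checks the calculation only. For genes with many UMIs in few cells, such as *Il11*, the intervals may be too narrow.

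The 10 genes and all lists were chosen with earlier results of these data known. Of each pathway list, up to 4 genes at a mean of 5 or more CPM with a 4-fold difference are named with their values, or else the 2 at the highest level. Further list genes, and single markers other than *Pdgfra*, were named after their values were seen. Values of 2 list genes are not reported here. The 5 genes most like a member are those with the largest value of the lowest log2 ratio over libraries with 50 or more cells that have a UMI of it. Positions are from GENCODE M21 (GRCm38), which held 32158 of the 32285 gene identifiers, and promoter windows from RefSeq on GRCm38.p6. The comparison of genes by intron length and the motif search were chosen after the data had been seen. Protein sequences were not used here. Computation was done in Python 3.11.15 with pandas 2.3.3, scipy 1.17.1 and numpy 2.4.6, and plots were drawn with matplotlib 3.10.9. Alternatives changed the cell filters, removed the cells with the most UMIs, subtracted free RNA, restricted the cells, weighted or scaled them differently, and changed the filter on low counts and the 2-fold limit.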

Additional observations from a re-analysis of the deposited data

Results flagged for a closer look

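The effects listed here went in opposite directions in the 2 depots or in the 2 kinds of cell. With 1 library per condition, none of these differences was tested.

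In iWAT, DFAT cells stood above ASPCs, and in eWAT below them, for 7 genes. The log2 ratios of DFAT cells over ASPCs in iWAT and eWAT were 0.65 and -0.75 for *Il6ra*, 0.56 and -0.98 for *Il6st*, 1.21 and -0.18 for *Lifr*, and 1.33 and -0.44 for *Osmr*. They were 0.31 and -1.25 for *Il11ra1*, 2.22 and -1.01 for *Socs3*, and 1.05 and -0.52 for *Stat3*. All 5 receptors, *Socs3* and *Stat3* are in this set, and none of the 3 ligands. The progenitor marker sum, mostly of collagen genes, was also lower in eWAT DFAT cells than in eWAT ASPCs (2371 against 6916 CPM). *Pdgfra*, 1 of its 8 genes, was higher (95.2 against 82.5 CPM). The part of either in these ratios was not tested.

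In DFAT cells the inguinal level was above the epididymal one, and in ASPCs below it, for 8 genes. The log2 ratios of iWAT over eWAT in DFAT cells and ASPCs were 1.12 and -0.95 for *Il6*, 0.92 and -0.36 for *Lif*, 0.79 and -0.62 for *Il6ra*, and 1.27 and -0.11 for *Lifr*. They were 1.47 and -0.29 for *Osmr*, 1.42 and -0.14 for *Il11ra1*, 2.09 and -1.13 for *Socs3*, and 1.37 and -0.20 for *Stat3*. For *Il11* the order was the reverse, with -1.79 in DFAT cells and 0.23 in ASPCs, and the second value changed sign in cells with a *Pdgfra* UMI. *Il6st* was higher in iWAT in both kinds of cell.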

How the results depend on the processing

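The counts of genes past 2-fold moved by over 1.5 times in 2 of the 8 directions compared, and by less in 2 more. Those higher in iWAT than in eWAT DFAT cells ranged from 7 to 9, and those higher in iWAT DFAT cells than in iWAT ASPCs from 6 to 8. The values of 9 and 8 were reached only at a limit of 1.5-fold, for which the share of all genes is not given. The count higher in eWAT ASPCs than in eWAT DFAT cells fell from 2 to 1, *Il11ra1*, with a minimum of 10000 UMIs, with under 20% mitochondrial UMIs and with each cell weighted equally, since *Socs3* lay close to the limit. With the tenth of cells with the most UMIs left out it stayed at 2, with *Il6st* in place of *Socs3*. It rose to 3, with *Il6st* added, under other alternatives, among them median-of-ratios scaling, and to 4 at a limit of 1.5-fold. The count higher in eWAT than in iWAT ASPCs rose from 1 to 2, with *Il6* added, when cells of other marker classes were left out and under median-of-ratios scaling, and to 3 at 1.5-fold. The log2 ratio of *Il11* between iWAT and eWAT ASPCs ranged from -0.12 to 0.28 and was the only one of the 40 ratios to change sign over the 10 alternatives. That of *Il11* between the DFAT libraries ranged from -2.32 to -1.77. Ratios close to 2-fold crossed it under some alternatives, with ranges of 0.84 to 1.03 for *Lif* between the DFAT libraries, 0.96 to 1.07 for *Stat3* between DFAT cells and ASPCs of iWAT, and -1.06 to -0.95 for *Il6st* between those of eWAT. The cause of these changes was not tested. Shares of cells with a UMI moved with depth, as at full depth and with 2 UMIs required. No paired analysis was possible because each condition has 1 library, and for the same reason no replicate could be left out. Depth limits the list genes counted at a few UMIs per library, such as *Osm*.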
